A study of Mus musculus with 8 samples.

Results

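The cytosolic ribosomal protein genes were described in CT26 colorectal cancer material, grown as tumours in mice and as cells in culture, with and without mLJZD. The members were all protein-coding genes whose symbol follows the naming pattern of the mouse large-subunit (Rpl), small-subunit (Rps), stalk (Rplp0 to Rplp2) and Rpsa genes. Of 90 symbols that match the pattern, 6 belong to annotated pseudogenes and were left out. The remaining 84 genes, 52 of the large subunit and 32 of the small subunit, were all found among the 56953 gene identifiers of the table of raw counts, and 83 had a count in at least 1 library. The exception was Rpl10l, a paralogue known for its role in male germ cells, which was at 0 in all 8 libraries. The pattern leaves out ribosomal protein genes with other names, of which Fau and Rack1 are given at the end with related genes.

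The 8 RNA libraries formed 4 groups of 2. The first group was CT26 tumours transplanted into animals and treated with mLJZD, and the second was transplanted CT26 tumours treated with normal saline. The third was cultured CT26 cells kept for 48 h in 10% serum that contained mLJZD, and the fourth was cultured CT26 cells kept for 48 h in 10% control serum. CT26 is a mouse colon carcinoma cell line, and all 4 groups share it. The labels leave the name mLJZD unexpanded, and do not give the host animals' strain or age, the dose in the animals, or whether libraries of a group came from separate animals or cultures. The p-values below therefore rest only on how far libraries of 1 group differ, and that difference may be technical. The title of the study names nobiletin and an axis of CHEK1, H3K27ac and CENPM in colorectal cancer, whereas the libraries measure RNA only.

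Ribosomal proteins are assembled with ribosomal RNA into a small subunit, which decodes the messenger RNA, and a large subunit, which joins the amino acids. Growing cells make the proteins in nearly equal numbers from very abundant, short messenger RNAs, most of which start with a C followed by a run of pyrimidines, the terminal oligopyrimidine (TOP) tract, through which mTOR signalling and Larp1 set their translation. Mammalian genomes also hold many processed copies of these genes, so that short reads of a ribosomal protein messenger RNA can match more than 1 place.

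Total counts per library ranged from 16594912 to 29363861. The members took 4.80% to 8.76% of all counts in a library, and 74 of the 84 averaged at least 100 counts per 1000000 counts of a library (CPM), so that counting error was small for most of them. Mitochondrially encoded genes held 0.623% to 1.73%. Epithelial markers were low throughout. The 7 summed to 7.86 and 7.05 CPM in mLJZD tumours, against 22.5 and 23.0 CPM in saline tumours, and to 33.1 and 30.003 CPM in mLJZD-serum cultures, against 41.6 and 33.1 CPM in control-serum cultures. These sums do not stand for each marker. Krt18 had 16.6 and 15.8 CPM in saline tumours and 29.2 to 39.0 CPM in cultures, against 1.86 and 2.23 CPM in mLJZD tumours. Cdh1 went the other way in tumours, with 4.75 and 3.98 CPM in mLJZD tumours, against 2.95 and 3.28 CPM in saline tumours. Cdx2, a transcription factor of intestinal epithelium, was at 0 in all 4 tumours. Epcam was at 0 in all 4 cultures, and Cdh1 was at 0 in 3 of the 4 cultures. Markers of host cells were found in the tumours. The 7 leukocyte markers summed to 467 to 500.1 CPM in tumours and to 5.68 to 9.26 CPM in cultures.

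The annotated start sites of a few members are shown because a TOP tract, where there is one, lies at the first bases of the messenger RNA. None of the runs marked below begins exactly at the annotated start. They are pyrimidine runs near it and were not shown to be TOP tracts. RefSeq windows (build GRCm38.p6) were at hand for 64 of the 84 members, in 76 annotated starts. Each sequence below runs 5′ to 3′ on the gene's strand from 30 bases before the annotated start to 20 bases after it. Capitals mark a C followed by at least 4 pyrimidines that begins within 10 bases of the start.
Rps6 (chr4:86857348-86857397, minus strand): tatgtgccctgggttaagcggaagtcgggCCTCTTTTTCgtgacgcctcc
Rplp2 (chr7:141447621-141447670, plus strand): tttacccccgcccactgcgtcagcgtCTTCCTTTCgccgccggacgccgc
Rpl28 (chr7:4792935-4792984, plus strand): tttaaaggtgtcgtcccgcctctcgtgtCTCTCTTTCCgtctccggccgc
Rpl35 (chr2:39005112-39005161, minus strand): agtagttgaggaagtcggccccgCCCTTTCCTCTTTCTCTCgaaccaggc
Rpl31 (chr1:39367821-39367870, plus strand): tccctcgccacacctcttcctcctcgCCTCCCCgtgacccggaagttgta
Rpl13 (chr8:123102320-123102369, plus strand): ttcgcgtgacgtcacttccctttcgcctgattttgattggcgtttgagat
Rpl22l1 (chr3:28805478-28805527, plus strand): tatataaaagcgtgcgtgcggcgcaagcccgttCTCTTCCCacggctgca
Rpl3l (chr17:24727796-24727845, plus strand): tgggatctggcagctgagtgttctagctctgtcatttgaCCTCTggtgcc
The run of Rpl3l is the shortest marked. Rpl13 has none that begins within 10 bases of this annotated start, although a pyrimidine run lies further upstream in its printed sequence. Such a run stood at 53.9% of the 76 member starts and at 30.7% of all 32851 starts in the table. In windows from 250 bases before to 50 bases after the start, searched on both strands, CCGGAAG, a core of the sites of ETS factors, was in 35.5% of member windows and 8.86% of all windows. AANATGGCG, a core of YY1 sites, was in 13.2% of member windows and 2.38% of all, and GGGCGG, the GC box, in 60.5% of member windows and 35.7% of all. TATAAA was in 9.21% of member windows and 13.6% of all, and CACGTG, the E box that Myc binds with Max, in 10.5% of member windows and 7.15% of all. These matches describe the letters in the windows, and the members' windows were not matched to others for base composition.

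The share of counts held by the members differed between treated and untreated material in opposite directions in the tumours and in the cultures. It was 7.28% and 6.93% in mLJZD tumours, against 5.85% and 5.97% in saline tumours. It was 4.80% and 4.93% in mLJZD-serum cultures, against 8.76% and 7.91% in control-serum cultures. Both tumours given mLJZD thus lay above both saline tumours, and both mLJZD-serum cultures lay below both control-serum cultures. The group means were 7.10% ± 0.248 for mLJZD tumours, 5.91% ± 0.0851 for saline tumours, 4.86% ± 0.0915 for mLJZD-serum cultures and 8.33% ± 0.597 for control-serum cultures (SD, n = 2 each). With 2 libraries against 2, the smallest p of an exact two-sided permutation test is 0.333, so no such test of these shares can pass 0.05. A share of bulk RNA cannot tell fewer cells of a type from less of this RNA per cell.

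The large-subunit members held 1.36 and 1.38 times the counts of the small-subunit members in mLJZD tumours, against 1.44 and 1.46 times in saline tumours. The same ratio was 1.56 and 1.55 in mLJZD-serum cultures, against 1.51 and 1.52 in control-serum cultures. The ranges of treated and untreated groups did not overlap in either material, and the ratio was lower in mLJZD tumours and higher in mLJZD-serum cultures than in their controls.

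**Figure D1:**
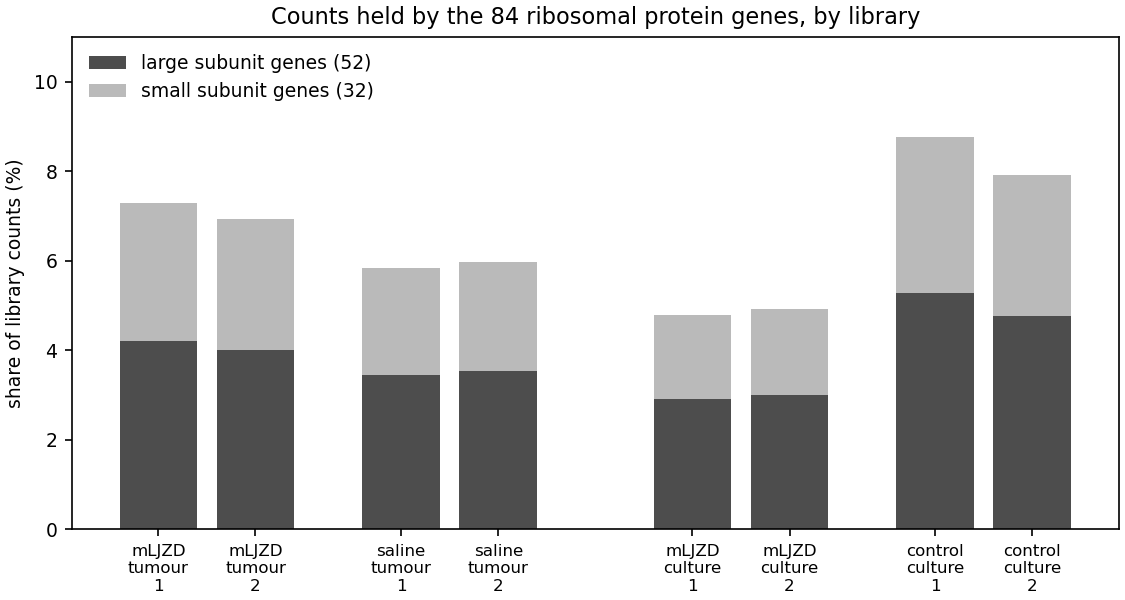
Percent of all counts held by the ribosomal protein genes in each of the 8 libraries, with large-subunit and small-subunit members shown separately. The mLJZD tumours hold 7.28% and 6.93% against 5.85% and 5.97% in saline tumours, and the mLJZD-serum cultures hold 4.80% and 4.93% against 8.76% and 7.91% in control-serum cultures.

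Levels of different members were compared per kilobase of the longest annotated transcript. Rplp1, a stalk protein, had the highest level on this scale in every group, at 3647 CPM per kb in mLJZD tumours, 2869 in saline tumours, 2394 in mLJZD-serum cultures and 5293 in control-serum cultures. Rpl41, the shortest ribosomal protein, had 2247 CPM per kb in mLJZD tumours, 1975 in saline tumours, 1476 in mLJZD-serum cultures and 2583 in control-serum cultures. Per kilobase of coding sequence, which is very short in Rpl41, Rpl41 came first instead, with 20826 CPM per kb in mLJZD tumours, 18301 in saline tumours, 13678 in mLJZD-serum cultures and 23933 in control-serum cultures, and Rplp1 came second in every group. On the scale of the longest transcript, Rps3a1, a small-subunit protein, had 2376 CPM per kb in mLJZD tumours, 2043 in saline tumours, 1505 in mLJZD-serum cultures and 1973 in control-serum cultures. Rpl8, a protein near the peptidyl transferase centre, was second in both culture groups and below the first 3 in both tumour groups, at 1582 CPM per kb in mLJZD tumours, 1688 in saline tumours, 2074 in mLJZD-serum cultures and 3524 in control-serum cultures. At the low end, after Rpl10l, stood Rpl3l and Rpl36al. Rpl3l, a paralogue of Rpl3 known from heart and skeletal muscle, had 0.83 CPM per kb in mLJZD tumours and 2.30 in saline tumours, and 0.05 in both kinds of culture.

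In tumours, mLJZD went with higher levels of most ribosomal protein genes and of both subunits, by a modest amount. In edgeR's quasi-likelihood test with Benjamini-Hochberg adjustment over all genes tested, 67 of the 83 tested members were higher at an adjusted p under 0.05, 1 was lower and 15 did not pass, while 15.4% of all genes tested were higher and 16% lower. The members' median log2 fold change was 0.28, against 0.00 over all genes tested. The small subunit had 30 of 32 members higher with a median of 0.32, and the large subunit 37 of 51 with a median of 0.27. Without mLJZD tumour replicate 1, 39 members were higher, all of them among the 67, and none was lower, while 3.43% of all genes tested were then higher and 3.32% lower.

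The member with the largest higher value was Rps20, a small-subunit protein. Rps20 had 1536 and 1391 CPM in mLJZD tumours, against 961 and 958 CPM in saline tumours (log2 fold change 0.64, SE 0.04, edgeR adjusted p = 3.18e-09). Both mLJZD tumours lay well above both saline tumours. Rps6 is the protein that S6 kinases phosphorylate downstream of mTOR. Rps6 had 1791 and 1723 CPM in mLJZD tumours, against 1174 and 1193 CPM in saline tumours (log2 fold change 0.60, SE 0.03, edgeR adjusted p = 2.01e-10). In both of these small-subunit genes the groups lay far apart relative to the gap between replicates.

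Rpl22l1, a paralogue of Rpl22, had 90.04 and 81.5 CPM in mLJZD tumours, against 59.8 and 57.9 CPM in saline tumours (log2 fold change 0.58, SE 0.06). Rps27a, which encodes a small-subunit protein fused to ubiquitin, had 639 and 592 CPM in mLJZD tumours, against 453 and 417 CPM in saline tumours (log2 fold change 0.53, SE 0.05). Rpl11, which with Rpl5 can bind Mdm2 when ribosome assembly is disturbed, had 755 and 712 CPM in mLJZD tumours, against 532 and 511 CPM in saline tumours (log2 fold change 0.52, SE 0.04). Each of the 3 passed the edgeR test at an adjusted p of 8.24e-07 or less, and none had overlapping groups.

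The stalk genes, whose acidic proteins recruit translation factors to the large subunit, moved by like amounts. Rplp0 had 2034 and 1941 CPM in mLJZD tumours, against 1592 and 1624 CPM in saline tumours (log2 fold change 0.34, SE 0.03). Rplp1 and Rplp2 each had a log2 fold change of 0.38, with SE 0.03 for Rplp1 and 0.04 for Rplp2. Rpsa, a small-subunit protein also known as a laminin receptor precursor, had 2264 and 2158 CPM in mLJZD tumours, against 1951 and 1995 CPM in saline tumours (log2 fold change 0.20, SE 0.03, edgeR adjusted p = 7.16e-05). The smaller difference of Rpsa was still larger than the gap between its replicates.

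The 1 member that was lower in mLJZD tumours was Rpl3l. Its levels were 0.764 and 1.51 CPM in mLJZD tumours, against 2.89 and 3.44 CPM in saline tumours (log2 fold change -1.46, SE 0.34, edgeR adjusted p = 0.00277). Its groups did not overlap, but these are low levels, and Rpl3l did not pass without mLJZD tumour replicate 1. The 5 skeletal muscle markers moved the same way, with sums of 314 and 303 CPM in mLJZD tumours, against 1916 and 1937 CPM in saline tumours, and all 5 were at 0 in both control-serum cultures. The part of muscle in the level of Rpl3l was not tested.

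The groups did not overlap for 71 members that were higher and 3 that were lower in mLJZD tumours, where 27.9% of all genes tested lay apart as higher and 36.6% as lower. Removing the trend of each library's counts with transcript length and GC content left 62 members higher, all among the 67, with a median log2 fold change of 0.21, and 16.8% of all genes higher. With the trend removed, 3 were lower (16.4% of all genes), which added Rpl39l at -0.26 and Rpl8 at -0.11 to Rpl3l. Rpl8 had 1680 and 1548 CPM in mLJZD tumours, against 1712 and 1731 CPM in saline tumours.

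Markers of host cells also differed between the tumour groups. The 3 plasma cell markers summed to 354 and 319 CPM in mLJZD tumours, against 25.9 and 25.2 CPM in saline tumours, and the 5 erythroid markers to 47.0 and 43.7 CPM, against 22.2 and 18.2 CPM. The 4 neutrophil markers summed to 30.2 and 28.1 CPM in mLJZD tumours, against 18.3 and 18.5 CPM in saline tumours. The 5 fibroblast markers summed to 3627 and 3544 CPM in mLJZD tumours, against 3186 and 3202 CPM. This sum does not mark host cells alone, since the 5 summed to 1845.9 to 2180.5 CPM in the cultures. Most of that was Col1a2, with 1475 to 1813 CPM, and Col1a1, with 261 to 381 CPM, while Dcn had at most 0.18 CPM. Dcn had 207 and 201 CPM in mLJZD tumours, against 175 and 174 CPM in saline tumours, and Col1a1 and Col3a1 were also apart and higher. Col1a2 overlapped between the tumour groups, with 1996 and 1962 CPM in mLJZD tumours, against 1987 and 2009 CPM. So did Pdgfra, with 46.8 and 50.4 CPM, against 47.2 and 48.8 CPM. The 7 leukocyte markers were similar in sum only, with 488 and 467 CPM in mLJZD tumours, against 500.1 and 494 CPM in saline tumours. Single markers moved in both directions. Csf1r had 167 and 159 CPM in mLJZD tumours, against 198 and 197 CPM, and Ptprc had 122 and 114 CPM, against 110 and 107 CPM. The part of these cells in the members' levels was not tested.

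**Figure D2:**
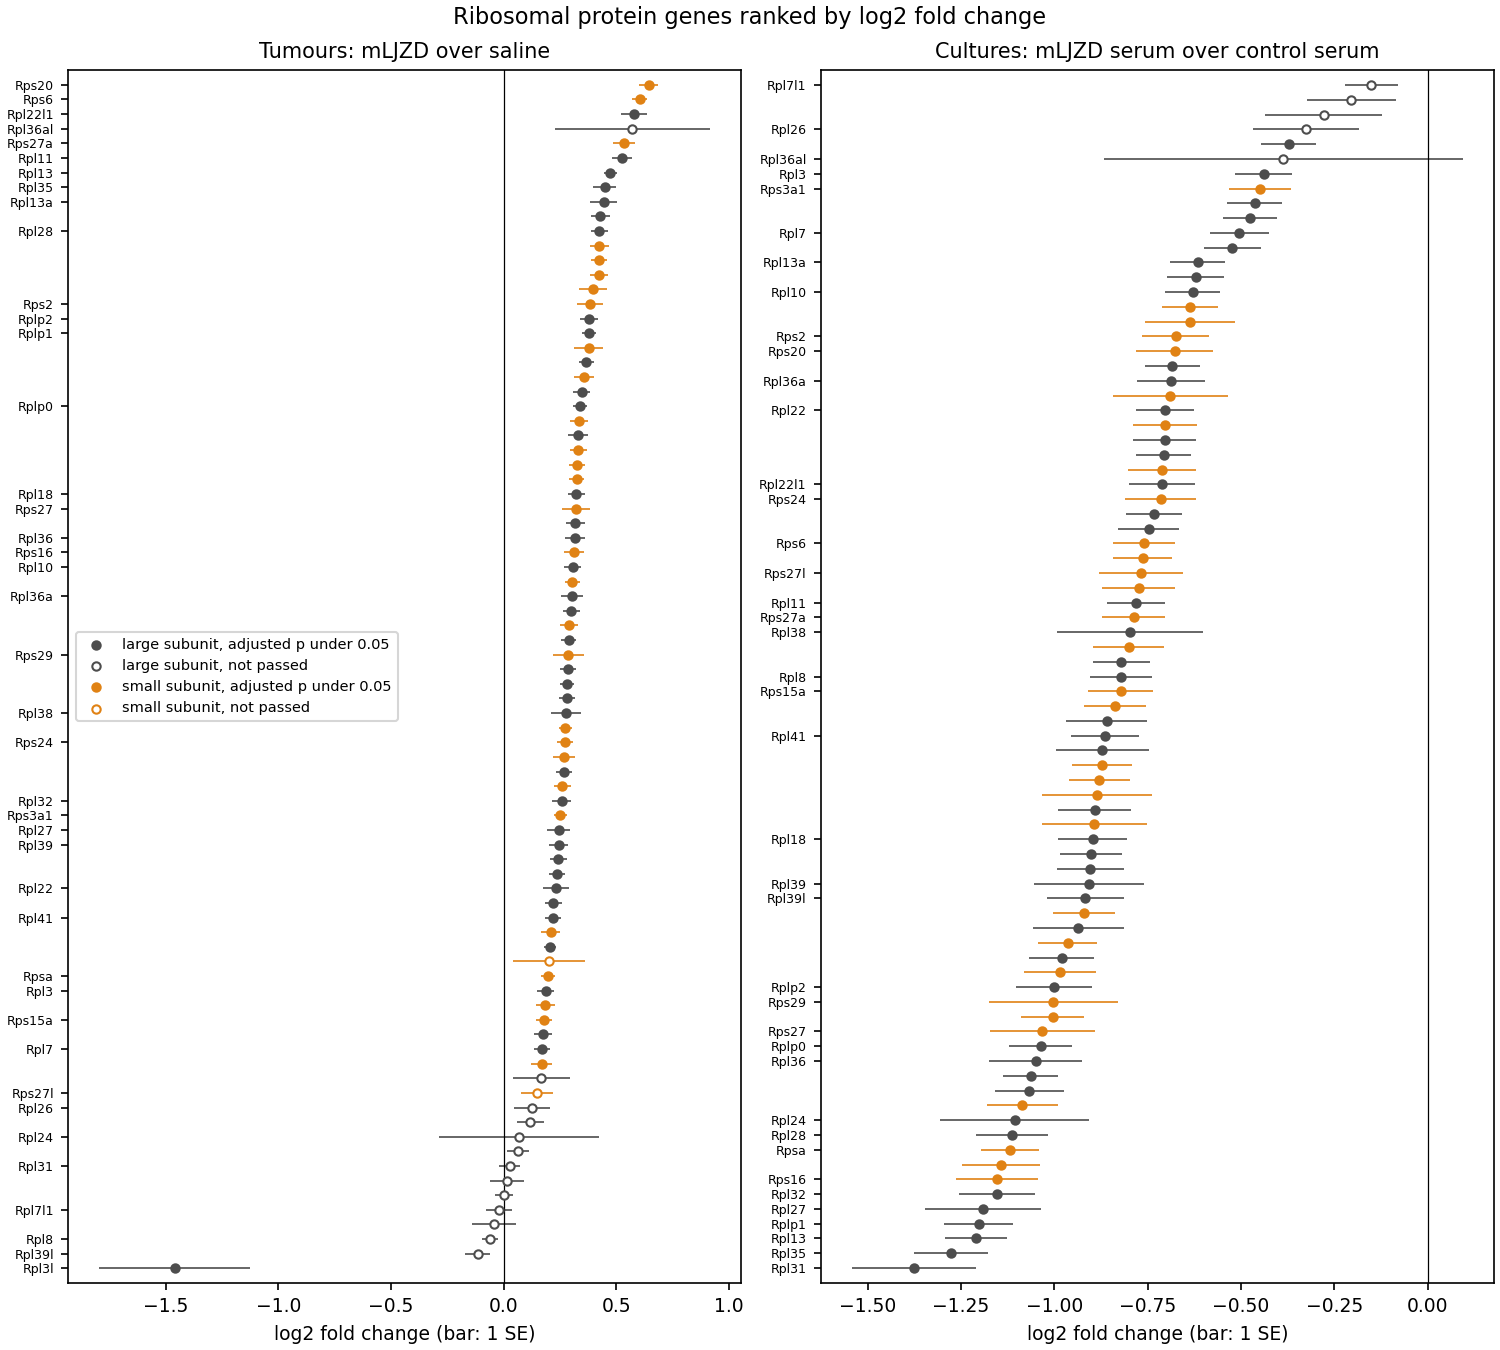
Log2 fold change of the ribosomal protein genes reported for mLJZD against saline in tumours and for mLJZD serum against control serum in cultures, with most genes named in the text labelled, bars of 1 SE, filled points for an adjusted p under 0.05 and colours for the large and small subunits. The medians are 0.28 in tumours and -0.82 in cultures, and 67 members pass as higher in tumours while 77 pass as lower in cultures.

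In cultures, serum containing mLJZD went with lower levels of nearly all ribosomal protein genes. In edgeR's quasi-likelihood test 77 of the 82 tested members were lower and 0 were higher, while 26.6% of all genes tested were lower and 28.8% higher. At an unadjusted p under 0.05 the test gave 78 lower and 0 higher members, and DESeq2 gave 76 lower and 0 higher at an adjusted p under 0.05. Of all 13299 genes, DESeq2 gave 3116 lower and 3485 higher. The members' median was -0.82, against -0.01 over all genes tested. The large subunit had 45 of 50 members lower with a median log2 fold change of -0.82, and the small subunit 32 of 32 with a median of -0.83. The groups did not overlap for 80 members, all lower, where 35.4% of all genes tested lay apart as lower and 42% as higher.

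Rpl31 and Rpl35 lie around the exit of the tunnel through which the new protein leaves the large subunit. Rpl31 had 251 and 425 CPM in mLJZD-serum cultures, against 893 and 794 CPM in control-serum cultures (log2 fold change -1.38, SE 0.17, edgeR adjusted p = 7.55e-06). Rpl35 had 322 and 328 CPM in mLJZD-serum cultures, against 844 and 669 CPM in control-serum cultures (log2 fold change -1.28, SE 0.10, edgeR adjusted p = 1.42e-07). The groups lay apart for both, although the mLJZD-serum replicates of Rpl31 differed from each other more than those of Rpl35.

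Rpl13 had 1031 and 1109 CPM in mLJZD-serum cultures, against 2496 and 2258 CPM in control-serum cultures (log2 fold change -1.21, SE 0.08). Rpl27 had 321 and 527 CPM in mLJZD-serum cultures, against 968 and 895 CPM in control-serum cultures (log2 fold change -1.19, SE 0.16). Rpl32 had 586 and 742 CPM in mLJZD-serum cultures, against 1490 and 1349 CPM in control-serum cultures (log2 fold change -1.15, SE 0.10). These 3 large-subunit genes had no overlap between groups and passed the edgeR test at an adjusted p of 1.64e-05 or less.

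Of the stalk genes, Rplp1 had 1134 and 1254 CPM in mLJZD-serum cultures, against 2848 and 2435 CPM in control-serum cultures (log2 fold change -1.20, SE 0.09). Rplp0 had a log2 fold change of -1.04 (SE 0.08) and Rplp2 of -1.0002 (SE 0.10). Rpsa had 1864 and 1816 CPM in mLJZD-serum cultures, against 3979 and 3703 CPM in control-serum cultures (log2 fold change -1.12, SE 0.08). All 4 genes were thus lower with groups far apart. Rps6 had 1134 and 1015 CPM in mLJZD-serum cultures, against 1813 and 1682 CPM in control-serum cultures (log2 fold change -0.76, SE 0.08, edgeR adjusted p = 3.02e-06).

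The 5 members that did not pass in cultures were Rpl7l1, Rpl21, Rpl26, Rpl29 and Rpl36al. Their log2 fold changes were -0.15 (SE 0.07) for Rpl7l1, -0.20 (SE 0.12) for Rpl21, -0.33 (SE 0.14) for Rpl26, -0.28 (SE 0.16) for Rpl29 and -0.39 (SE 0.48) for Rpl36al. All except Rpl7l1 are among the genes whose processed copies held more counts than the member itself, as described with the copies further on.

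**Figure D3:**
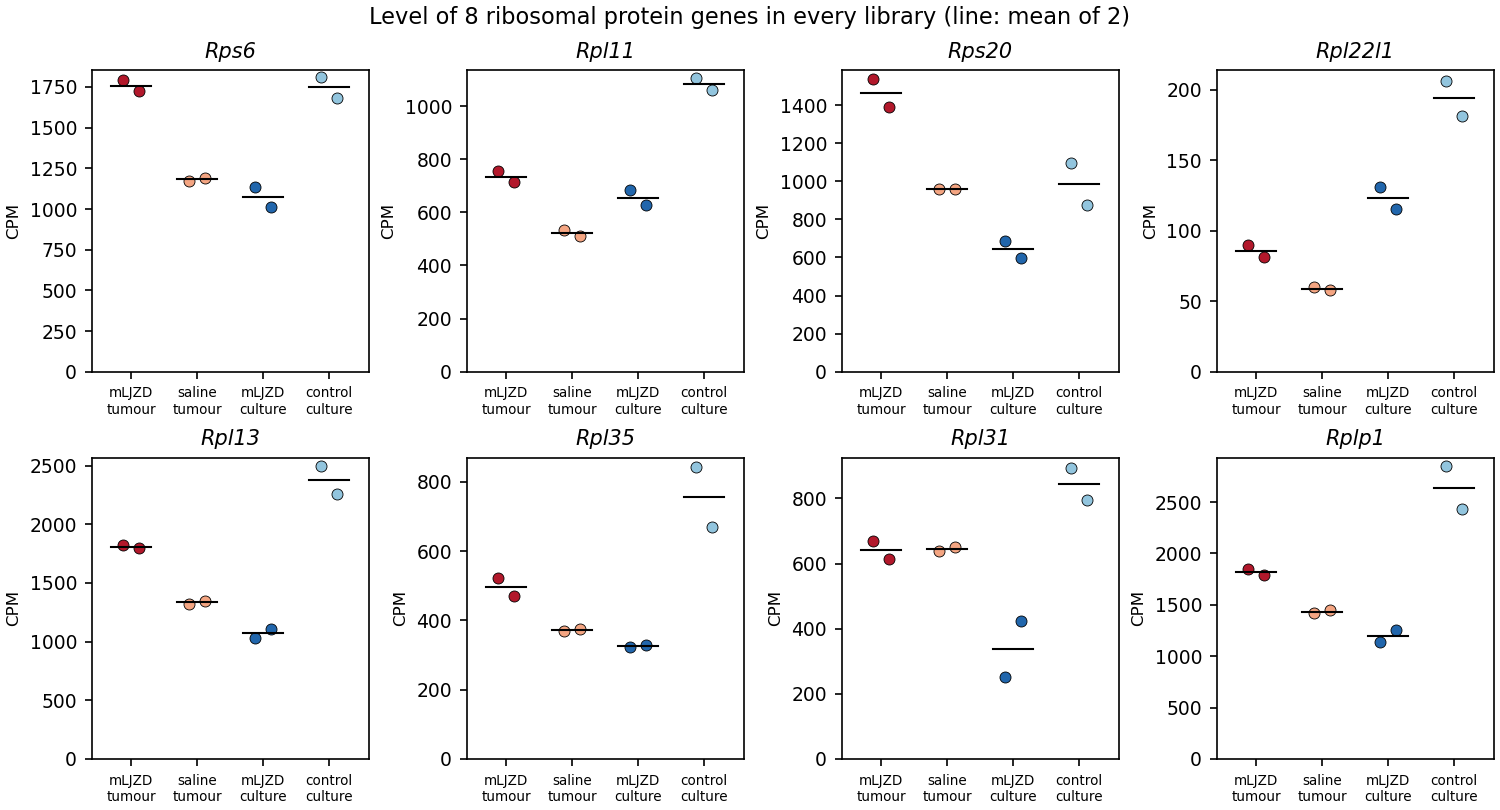
CPM of 8 of the named ribosomal protein genes in each of the 8 libraries, on linear axes that start at 0, with a line at the mean of the 2 libraries of a group, for Rps6, Rpl11, Rps20, Rpl22l1, Rpl13, Rpl35, Rpl31 and Rplp1. Rps20, Rpl11 and Rps6 lie higher in mLJZD tumours than in saline tumours, and Rpl31, Rpl35 and Rpl13 are lowest in mLJZD-serum cultures of all groups.

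The messenger RNAs of the members are short, and in the cultures the direction of change over all genes ran with transcript length. The members' coding sequences span 75 to 1257 bases with a median of 454.5, and their longest annotated transcripts 383 to 5179 bases with a median of 1100, against a median of 3419.5 over the protein-coding genes tested in cultures. Of protein-coding genes with a longest transcript under 1000 bases, 76% were lower in mLJZD-serum cultures with a median log2 fold change of -0.76, and 33 of the 35 members in this class were lower with a median of -0.88. From 1000 to 1999 bases, 65.4% of protein-coding genes were lower with a median of -0.48, and 31 of 33 members with a median of -0.75. The members' shares in these short classes were thus set against backgrounds far above the 26.6% of all genes.

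In the longer classes the members stood further from the other genes. From 2000 to 3999 bases, 29.4% of protein-coding genes were lower with a median log2 fold change of -0.08, and 11 of 12 members were lower with a median of -0.89. At 4000 bases and over, 7.57% of protein-coding genes were lower with a median of 0.47, while both members there were lower with a median of -0.77. These classes rest on the longest annotated transcript, which can be far longer than the coding sequence, as for Rps15a.

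By coding length, the medians of the log2 fold change in cultures were -0.87 for the 11 members under 300 bases, -0.98 for 29 members of 300 to 449 bases, -0.88 for 19 of 450 to 599 bases and -0.67 for 23 of 600 bases and over. Over the 82 members, which share libraries and depth, the log2 fold change and log2 coding length had Pearson's r = 0.31 and Spearman's rho = 0.35. With the length and GC trend removed, r was 0.12.

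After removal of that trend 50 members were lower in mLJZD-serum cultures, all among the 77, and 2 were higher, while 15.5% of all genes tested were lower and 22.9% higher. The members' median log2 fold change was then -0.32. The 2 higher members were Rpl26 at 0.44 and Rpl29 at 0.60, both of which had a lower level in mLJZD-serum cultures before the removal. Of the members with the shortest transcripts, Rpl36 moved to -0.15 with the trend removed, against -1.05 before, Rpl38 to 0.06, against -0.80, and Rps29 to -0.40, against -1.002. Rps6, with a log2 fold change of -0.76 before, stood at 0.03.

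The 3 members with the longest annotated transcripts lay further from 0 with the trend removed. The correction uses the longest annotated transcript, so these members were corrected as long genes although their coding sequences are short. That transcript has 5179 bases in Rps15a, against 390 coding bases, 4059 against 399 in Rps24 and 3706 against 357 in Rps20. The same holds for other members, such as Rpl12 with 2863 against 495. Rps15a had a log2 fold change of -1.29 with the trend removed, against -0.82 before, Rps24 of -0.93, against -0.72, and Rps20 of -0.83, against -0.68. The 6 members with the largest changes stayed past the threshold in the edgeR test with the trend removed. Rpl31 was at -0.95 (adjusted p = 0.000498), Rpl13 at -0.84 (adjusted p = 4.32e-06), Rpl32 at -0.56, Rpl35 at -0.52, Rpl27 at -0.46 and Rplp1 at -0.41.

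Replicate libraries of a group also differed by member length. Over the 74 members with a mean of at least 100 CPM, the ratio of control-serum culture 1 to control-serum culture 2 had a median of 1.11 and exceeded 1.2 for 17 members. It was highest for Rpl38, at 1.87, which had 187 and 100.2 CPM in these libraries, and its log2 had r = -0.68 with log2 coding length. Between the mLJZD tumours the same ratio had a median of 1.05 and r = -0.53, between the saline tumours a median of 0.98 and r = -0.07, and between the mLJZD-serum cultures a median of 0.97 and r = 0.35. The part of RNA quality or library preparation in these gradients was not tested.

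**Figure D4:**
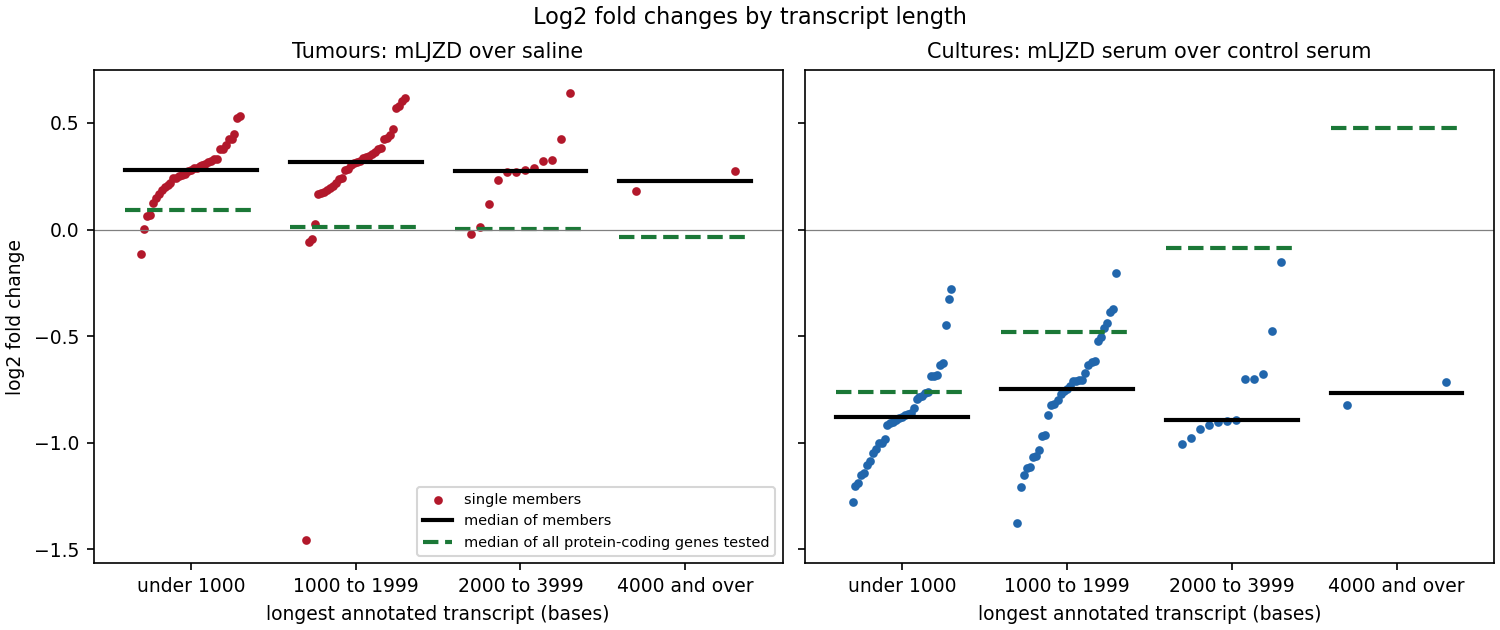
Log2 fold change of each ribosomal protein gene in tumours (mLJZD over saline) and in cultures (mLJZD serum over control serum), by class of longest annotated transcript in bases, with the median of the members as a solid line and that of all protein-coding genes tested as a dashed line. In cultures the members' medians are -0.88, -0.75, -0.89 and -0.77 from the shortest to the longest class, while those of protein-coding genes are -0.76, -0.48, -0.08 and 0.47.

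Saline tumours were compared with control-serum cultures, the untreated material of the same cell line, to describe the members without mLJZD. Material, host cells and vehicle differ together here and cannot be told apart. In edgeR's quasi-likelihood test 64 of 83 members were lower in saline tumours and 4 were higher, while 35.7% of all genes tested were lower and 44.9% higher. The members' median log2 fold change was -0.66, against 0.15 over all genes tested, a shift that TMM scaling leaves. The large subunit had 40 members lower and 3 higher, and the small subunit 24 lower and 1 higher. Without control-serum culture replicate 1 the members' median was -0.60. With the length and GC trend removed 19 members were higher (43.7% of all genes) and 49 lower (34%). The groups did not overlap for 62 members that were lower and 7 that were higher, where 34.9% of all genes tested lay apart as lower and 54.6% as higher.

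By length of the longest transcript, 25 of 35 members under 1000 bases were lower in saline tumours, against 58% of protein-coding genes of that class, and 28 of 34 members of 1000 to 1999 bases, against 55.6%. From 2000 to 3999 bases 11 of 12 members were lower, against 43.9%, while neither of the members of 4000 bases and over, Rps15a and Rps24, passed, against 20.1% of the class. The members' medians of the log2 fold change were -0.64, -0.61, -0.90 and -0.07 from the shortest to the longest class.

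The lowest value was that of Rpl24, a large-subunit protein at the interface with the small subunit. Rpl24 had 1.17 and 2.07 CPM in saline tumours, against 26.3 and 16.6 CPM in control-serum cultures (log2 fold change -3.88, SE 0.29, edgeR adjusted p = 4.49e-07). Of its exonic bases 47.0% are shared on the same strand with another annotated gene, Gm28037, so its counts are uncertain. Rpl13a, known in human cells for its release from the ribosome after interferon gamma, had 43.2 and 45.5 CPM in saline tumours, against 178 and 187 CPM in control-serum cultures (log2 fold change -2.20, SE 0.06). It shares 35.4% of its exonic bases with Gm45713. Both genes had groups far apart.

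Rpl22l1 had 59.8 and 57.9 CPM in saline tumours, against 206 and 181 CPM in control-serum cultures (log2 fold change -1.88, SE 0.07). Rps27l, a paralogue of Rps27 and a p53 target, had 72.5 and 80.1 CPM in saline tumours, against 207 and 192 CPM in control-serum cultures (log2 fold change -1.55, SE 0.07). Rps2 had 147 and 148 CPM in saline tumours, against 357 and 346 CPM in control-serum cultures (log2 fold change -1.42, SE 0.05). Rpl18 had 872 and 866 CPM in saline tumours, against 2105 and 1841 CPM in control-serum cultures (log2 fold change -1.35, SE 0.07). None of the 4 had overlapping groups, and each passed the edgeR test at an adjusted p of 2.14e-08 or less.

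The 4 members that were higher in saline tumours were Rpl3l, Rpl26, Rps29 and Rpl36a. Rpl3l had 2.89 and 3.44 CPM in saline tumours, against 0.0427 and 0.0901 CPM in control-serum cultures. These are 125 counts in the saline tumours and 3 in the control-serum cultures, a depth-adjusted ratio of 48.1 with an exact 95% interval of 16.1 to 237, which covers counting error only. Between mLJZD tumours and mLJZD-serum cultures the ratio was 13.9 (5.02 to 53.6), from 39 and 4 counts. Rpl3l thus came almost wholly from the tumour libraries, where the muscle markers given above were also found.

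Rps29, a short small-subunit protein, had 280 and 299.7 CPM in saline tumours, against 191 and 111 CPM in control-serum cultures (log2 fold change 0.78, SE 0.18), but with the counts of its copies added it was 0.33 (SE 0.17, edgeR adjusted p = 0.0972) and did not pass. Rpl36a had 450 and 456 CPM in saline tumours, against 314 and 262 CPM in control-serum cultures (log2 fold change 0.49, SE 0.08). Rpl26 had 30.1 and 32.7 CPM in saline tumours, against 15.9 and 15.0 CPM in control-serum cultures (log2 fold change 0.86, SE 0.10), but with the counts of its copies added it was -0.32. In all 3 the groups lay apart, while the control-serum cultures of Rps29 differed widely from each other.

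The difference of the mLJZD effect between the materials, tumours minus cultures, was tested by the interaction term of a fit on all 8 libraries. In edgeR's quasi-likelihood test 79 of 83 members had a higher effect in tumours than in cultures and 0 a lower one, while 23.8% of all genes tested were higher and 20.5% lower. At an unadjusted p under 0.05 and in DESeq2 the count of lower members was also 0. The median of the members' difference was 1.18 on the log2 scale, with 47 of 51 large-subunit and 32 of 32 small-subunit members passing. With the length and GC trend removed 71 members passed with a median of 0.64 and 17.9% of all genes were higher. Of the 82 members tested in both materials, 67 were higher in mLJZD tumours and lower in mLJZD-serum cultures, and 10 were lower in mLJZD-serum cultures without passing in tumours. Over all genes tested in both materials these shares were 6.24% and 17.6%.

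Among the largest differences were those of Rpl35 at 1.81 (SE 0.12), Rpl13 at 1.77 (SE 0.09), Rplp1 at 1.67 (SE 0.10), Rpl28 at 1.62 (SE 0.11) and Rps16 at 1.55 (SE 0.13), each with an edgeR adjusted p of 8.09e-08 or less. Rps16 had 1112 and 1043 CPM in mLJZD tumours, against 857 and 920 CPM in saline tumours, and 543 and 724 CPM in mLJZD-serum cultures, against 1394 and 1316 CPM in control-serum cultures. Rpl28 had 1143 and 1069 CPM in mLJZD tumours, against 841 and 845 CPM in saline tumours, and 492 and 586 CPM in mLJZD-serum cultures, against 1198 and 1043 CPM in control-serum cultures. In both genes the tumour groups and the culture groups each lay apart, in opposite directions. The 4 members that did not pass were Rpl7l1 at 0.21 (SE 0.09), Rpl21 at 0.25 (SE 0.15), Rpl36al at 1.05 (SE 0.60) and Rpl3l at -1.57 (SE 1.34).

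The size of a member's change in tumours did not run with its size in cultures. Over the 82 members tested in both materials, whose libraries are separate, the log2 fold changes had r = -0.12 and rho = -0.11. Rps20, with the largest change in tumours, had -0.68 in cultures, and Rpl31, with the largest change in cultures, had 0.03 (SE 0.05, edgeR adjusted p = 0.722) in tumours. Rpl31 had 668 and 613 CPM in mLJZD tumours, against 638 and 650 CPM in saline tumours, so that its groups overlapped.

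Paralogues of members were read beside their partners. Rpl3 was higher in mLJZD tumours with a log2 fold change of 0.19 (edgeR adjusted p = 0.000869), where Rpl3l was at -1.46, and in mLJZD-serum cultures Rpl3 was lower at -0.44. Rpl39l, known from male germ cells, was well expressed here, with 114 and 104 CPM in mLJZD tumours, against 123 and 119 CPM in saline tumours (log2 fold change -0.12, SE 0.06, edgeR adjusted p = 0.132). Its partner Rpl39, at the wall of the exit tunnel, was higher in mLJZD tumours at 0.24 (edgeR adjusted p = 0.00038). In cultures Rpl39l and Rpl39 were lower by like amounts, at -0.92 and -0.91.

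Rpl22l1 was higher in mLJZD tumours at 0.58, and Rpl22, its partner, at 0.23 (SE 0.06), while in mLJZD-serum cultures both were lower, at -0.71 and -0.70. Between saline tumours and control-serum cultures Rpl22l1 stood at -1.88 and Rpl22 at -0.75. Rps27 was higher in mLJZD tumours at 0.32 (SE 0.06) and Rps27l had 0.15 (SE 0.07, edgeR adjusted p = 0.12), and in mLJZD-serum cultures Rps27 was lower at -1.03 and Rps27l at -0.77. Between saline tumours and control-serum cultures Rps27 stood at -0.01 (SE 0.12) and Rps27l at -1.55. Differences between partners were not themselves tested. After removal of the length and GC trend, Rps27 stood at -0.29 in cultures (edgeR adjusted p = 0.0726) and Rpl3 at -0.04 (edgeR adjusted p = 0.663), and Rpl39 at 0.09 in tumours (edgeR adjusted p = 0.0607).

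Rpl7l1, which acts in ribosome assembly, had 127 and 123 CPM in mLJZD tumours, against 124 and 135 CPM in saline tumours (log2 fold change -0.02, SE 0.06, edgeR adjusted p = 0.826). It had 185 and 175 CPM in mLJZD-serum cultures, against 192 and 192 CPM in control-serum cultures (log2 fold change -0.15, SE 0.07, edgeR adjusted p = 0.0867). Its partner Rpl7 was higher in mLJZD tumours at 0.17 and lower in mLJZD-serum cultures at -0.50. Rpl36al had 1.69 and 2.23 CPM in mLJZD tumours, against 1.63 and 1.06 CPM in saline tumours, and 1.47 and 0.851 CPM in mLJZD-serum cultures, against 0.939 and 1.94 CPM in control-serum cultures, with overlap in cultures. It shares 24.5% of its exonic bases with Gm49383 and did not pass in either material. Rpl36a was higher in mLJZD tumours at 0.30 and lower in mLJZD-serum cultures at -0.69, and Rpl10, partner of the silent Rpl10l, was at 0.31 and -0.63.

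The members' counts also depend on how reads that match several places were counted, which is not given in the sources used here. A search of annotated transcripts found 987 copies with at least 90% identity over at least 80% of a member's coding sequence, 971 of them pseudogenes, for 78 of the 84 members. An identical copy existed for 24 members, and 60 members shared at least 80% of their 50-base coding windows with another annotated gene. The copies held 0.856% to 1.56% of a library's counts.

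For 10 members the copies held more counts than the member, as a mean of 8 libraries. Rps2 had 229 CPM, against 1882 in its copies, Rpl26 had 23.3, against 673, Rpl30 had 76.2, against 648, and Rps10 had 9.52, against 269. Rpl29 had 11.1, against 81.7, Rpl21 had 24.0, against 126, Rps18 had 104, against 320, and Rplp0 had 1774, against 2020. Rpl24 had 8.75, against 10.9, and Rpl36al had 1.48, against 1.51. In all of these members except Rpl29, a single copy held most of the copies' counts. Of such pairs, 3 are shown because their coding sequences differ at only a few bases. How reads were assigned between member and copy was not tested.

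Each stretch below is 60 coding bases of a member and of its copy, from the annotated transcripts, 5′ to 3′, and capitals mark the bases that differ. Positions are counted from 1 at the first base of the member's coding sequence.
Rpl26, positions 118 to 177: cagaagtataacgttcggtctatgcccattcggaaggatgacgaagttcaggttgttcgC
Gm15772, same stretch: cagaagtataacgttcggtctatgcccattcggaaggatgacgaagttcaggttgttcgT
Rpl30, positions 37 to 96: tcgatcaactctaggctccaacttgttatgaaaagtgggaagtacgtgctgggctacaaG
Gm12191, same stretch: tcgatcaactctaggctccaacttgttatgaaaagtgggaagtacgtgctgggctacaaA
Rps10, positions 379 to 438: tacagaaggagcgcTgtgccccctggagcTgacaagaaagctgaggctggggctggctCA
Rps10-ps2, same stretch: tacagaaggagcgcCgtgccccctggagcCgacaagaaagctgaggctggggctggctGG
Rpl26 and Gm15772 differ at 2 of 435 coding bases, C177T and T288C. Rpl30 and Gm12191 differ at 1 of 345, G96A. Rps10 and Rps10-ps2 differ at 5 of 495, T393C, T408C, C437G, A438G and G473A. Gm15772 alone held 669 CPM, Gm12191 held 641 and Rps10-ps2 held 252.

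With the counts of copies added to the member they match best, an alternative chosen after the data were seen, the members and copies together held 8.45% and 8.02% in mLJZD tumours, against 6.77% and 6.94% in saline tumours. They held 5.65% and 5.86% in mLJZD-serum cultures, against 10.3% and 9.34% in control-serum cultures. In tumours 71 members were then higher with a median log2 fold change of 0.30, and in cultures 79 were lower with a median of -0.84, while 15.6% of all genes were higher in tumours and 27.1% lower in cultures. Members with more counts in copies were read again with them. Rpl26 was at 0.24 (edgeR adjusted p = 0.000235) in tumours with copies added, against 0.13 (edgeR adjusted p = 0.261) without, and at -0.70 in cultures, against -0.33. Rpl29 was at -0.81 in cultures with copies added, against -0.28 without, and Rps10, which shares 20.6% of its exonic bases with another annotated gene, at 0.29 in tumours, against 0.20. Rpl21 was at -0.19 in cultures with copies added and still did not pass. In saline tumours against control-serum cultures, Rpl21 was at 1.81 (SE 0.62, edgeR adjusted p = 0.0167) with copies added, against -0.38 without, and Rps10 at 0.21 (edgeR adjusted p = 0.00667), against -0.95, so that both turned from lower to higher.

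**Figure D5:**
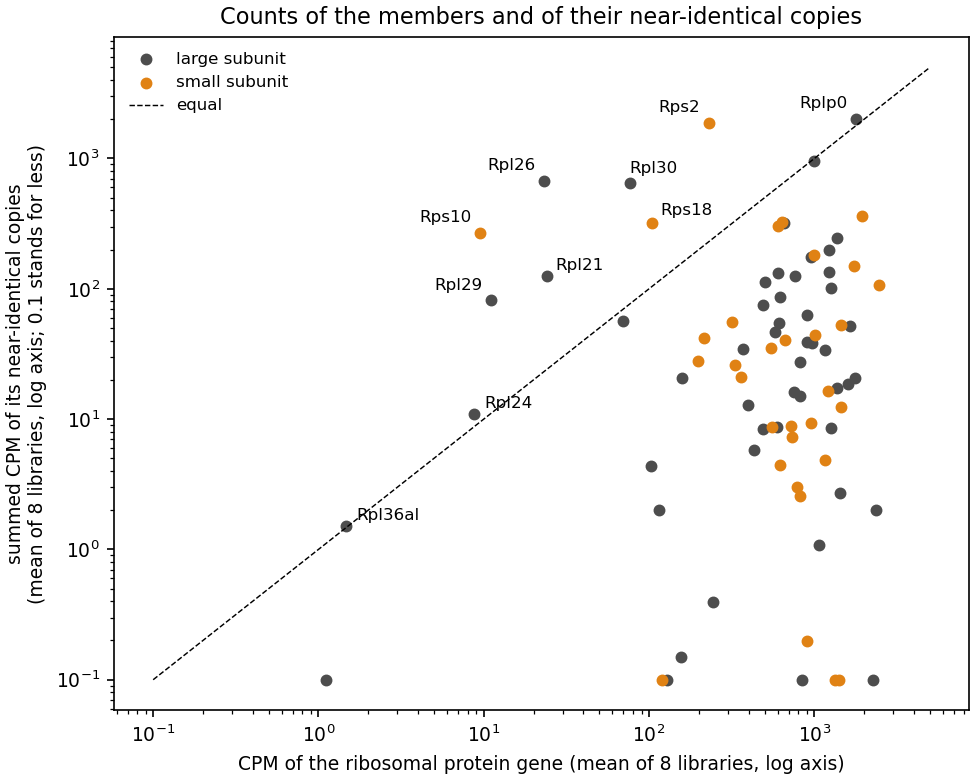
Mean CPM over the 8 libraries of each ribosomal protein gene against that of its annotated copies, both on log scales, with the line of equality and with sums under 0.1 drawn at 0.1. For 10 members the copies hold more than the member, among them Rps2 with 229 CPM against 1882 in copies and Rpl26 with 23.3 against 673.

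Of the ribosomal protein genes outside the naming pattern, Fau and Rack1 were higher in mLJZD tumours and lower in mLJZD-serum cultures. Fau, which encodes a small-subunit protein fused to a ubiquitin-like one, averaged 644 ± 24.8 CPM in mLJZD tumours and 499 ± 2.53 in saline tumours, and 401 ± 23.5 in mLJZD-serum cultures and 808 ± 92.4 in control-serum cultures (SD, n = 2 each). Its log2 fold changes were 0.40 (SE 0.04) in tumours and -1.07 (SE 0.09) in cultures. Rack1, a scaffold on the small subunit, was at 0.18 in tumours and -0.75 in cultures, both past the edgeR threshold. Values in cultures with the length and GC trend removed were -0.19 for Fau and -1.01 for Rack1, both past the threshold.

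In the lists of related genes that follow, counts are to be read against the 15.4% of all genes tested that were higher and 16% that were lower in mLJZD tumours, and the 28.8% higher and 26.6% lower in mLJZD-serum cultures. Counts in cultures with the length and GC trend removed are to be read against 22.9% higher and 15.5% lower. Of 27 translation factors and other genes with TOP messenger RNAs, 9 were higher and 4 lower in mLJZD tumours, and 5 were higher and 15 lower in mLJZD-serum cultures. Tpt1, an abundant TOP messenger RNA, was at 0.32 in tumours and -0.69 in cultures, and Eef1b2, an exchange factor of elongation, at 0.29 and -0.66. Eif4g1, the scaffold of the cap-binding complex, went the other way, at -0.19 in tumours and 0.60 in cultures, and Eif2s3x, a subunit of the factor that brings the initiator tRNA, was at 1.09 in cultures. The list's median log2 fold change was 0.06 in tumours and -0.20 in cultures. With the length and GC trend removed, 10 of the 27 were lower in cultures and 5 higher, and Tpt1 stood at -0.08 (edgeR adjusted p = 0.443).

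Of 46 genes of ribosome assembly and ribosomal RNA processing, 5 were higher and 16 lower in mLJZD tumours, and 22 were higher and 13 lower in mLJZD-serum cultures. Mdn1, a very large ATPase that remodels precursors of the large subunit, was at 2.16 (SE 0.09) in cultures, with 153 ± 4.18 CPM in mLJZD-serum and 32.9 ± 2.93 CPM in control-serum cultures (SD, n = 2 each). Utp20 and Heatr1, which act in early processing, were at 1.24 and 1.02 in cultures. Nop10 and Nhp2, small proteins of the pseudouridylation particle, were lower there at -1.04 and -0.77. The list's median was -0.11 in tumours and 0.17 in cultures. With the length and GC trend removed 25 of the 46 were higher and 9 lower in cultures. Mdn1 then stood at 0.93, Utp20 at 0.37, Heatr1 at 0.33 and Nhp2 at -0.11 (edgeR adjusted p = 0.167).

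Of 13 genes of RNA polymerase I and its factors, 0 were higher and 6 lower in mLJZD tumours, and 3 were higher and 6 lower in mLJZD-serum cultures. Polr1a, the largest subunit, was at -0.25 in tumours and 1.00 in cultures, and Polr2f, a small subunit shared by the nuclear RNA polymerases, was at -0.31 and -0.79. The list's median was -0.14 in tumours and -0.13 in cultures, and with the length and GC trend removed 4 were higher and 4 lower in cultures, where Polr1a stood at 0.23. Of 5 tested chaperones dedicated to single ribosomal proteins, 0 were higher and 2 lower in tumours, and 1 was higher and 2 lower in cultures, or 2 higher and 1 lower with the trend removed. Grwd1, the chaperone of Rpl3, was at -0.43 in tumours, and Aamp at -0.32 in tumours and -0.53 in cultures.

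Of 13 tested regulators, 3 were higher and 2 lower in mLJZD tumours, and 8 were higher and 3 lower in mLJZD-serum cultures. Myc, a transcription factor that drives ribosomal protein genes, averaged 168 ± 0.658 CPM in mLJZD tumours and 128 ± 0.499 in saline tumours (log2 fold change 0.42, SE 0.05), and 145 ± 6.70 in mLJZD-serum cultures and 196 ± 3.15 in control-serum cultures (log2 fold change -0.49, SE 0.07) (SD, n = 2 each). Eif4ebp1, the mTOR target that blocks cap-dependent initiation, was at 0.28 in tumours and -0.99 in cultures. Mtor itself was at -0.06 (edgeR adjusted p = 0.342) in tumours and 0.86 in cultures, and Tsc1, which restrains mTOR signalling, at 1.16 in cultures. The list's median was 0.05 in tumours and 0.42 in cultures. With the length and GC trend removed, 3 of the 13 were higher and 2 lower in cultures, Mtor stood at 0.24, Tsc1 at 0.52 and Myc at -0.17 (edgeR adjusted p = 0.0561).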

How the data were processed

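RNA was measured in 8 libraries of CT26 tumours and cultures, made with the VAHTS Universal V10 kit per the labels' protocols. The authors deposited raw read counts per gene identifier. The build was GRCm39, and the submitters' processing notes list HISAT2 2.2.1, featureCounts 2.0.3, SAMtools 1.14, FastQC 0.12.1 and Trim Galore. The strand setting, the annotation release and how reads with several matches were handled: not given in the sources used here. Gene symbols, classes and lengths came from GENCODE M21 by identifier, and promoter windows from RefSeq.

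Counts were tested with edgeR 4.0.16 (R 4.3.3), using TMM scaling, filterByExpr and the two-sided quasi-likelihood F test, with p-values adjusted over all genes tested by Benjamini-Hochberg and called at 0.05. Each comparison used its own 4 libraries, and the interaction all 8. CPM is per 1000000 of the library's total. Copies were found with blastn 2.17.0. Replicates differed by more than sampling noise (chi-square over degrees of freedom 2.69 to 11.6) and were kept separate. Scripts were tested on simulated data with known changes. The simulated libraries varied less than those of these data, so these runs do not give error rates for the data. Other scalings, filters, DESeq2 1.42.0, a replicate block, a length and GC correction, added copies and left-out libraries were tried. The length and GC correction used the longest annotated transcript of each gene.

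Genes named are the 6 called members with the largest change in each direction with at least 10 CPM in the higher group and groups apart, all called members of a direction with 6 or fewer, paralogues with partners, stalk genes, Rpsa, Rps6, the highest and lowest levels, the shortest and longest members, the members dominated by copies and up to 4 called genes per direction of each pathway list. A few genes that this rule names are not reported here, but they remain in the fits and counts. Members, lists and tests were chosen with earlier results of these data known.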

Additional observations from a re-analysis of the deposited data

Results flagged for a closer look

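The effect of mLJZD differed between tumours and cultures for 79 of the 83 members tested, by the interaction test of edgeR. The p-values were adjusted by Benjamini-Hochberg over all genes, of which 23.8% were higher and 20.5% lower. Of protein-coding genes with a longest transcript under 1000 bases 61.8% were higher, and 51.1% of those from 1000 to 1999 bases. The difference, tumours minus cultures on the log2 scale, was 1.81 for Rpl35, 1.77 for Rpl13, 1.67 for Rplp1, 1.62 for Rpl28 and 1.55 for Rps16. Each of these 5 genes was higher in both mLJZD tumours than in both saline tumours and lower in both mLJZD-serum cultures than in both control-serum cultures.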

How the results depend on the processing

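Each group held 2 libraries, so leaving out 1 leaves a lone library that is assumed to vary like the others, and members of low count (Rpl3l, Rpl36al, Rpl24) are limited by depth. Tumours: members higher numbered 39 to 67 and members lower 0 to 1 with 1 library left out; members lower were 3 with library totals, with the length and GC trend removed, and with the replicate block and trend removal. Cultures: 2 members were higher with the trend removed, with or without the block, and 50 lower with the trend removed. Of all genes tested in cultures, 22.9% were higher and 15.5% lower with the trend removed. Saline tumours against control-serum cultures: 7 were higher with library totals, 19 with the trend removed, with or without the block, and 4 to 9 with 1 library left out. The cause of these changes was not tested. Calls over all genes moved too. With library totals, 2872 of 15417 genes were lower in tumours, against 2464 with TMM scaling. Between saline tumours and control-serum cultures, 7622 of 15332 were higher with library totals and 6700 with the trend removed, against 6879. Without mLJZD tumour replicate 1, calls over all genes also fell, as given above. With 1 library left out, the members' median log2 fold change in tumours was 0.24 to 0.33. Upper-quartile scaling moved the median of all genes in cultures to -0.12, and 81 members were then lower, as were 4398 of the 13299 genes tested. Shares with named pseudogenes added were 7.53% for mLJZD tumours, 6.27% for saline tumours, 5.27% for mLJZD-serum cultures and 9.02% for control-serum cultures, and 6.01% for saline tumours without mitochondrial genes.

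The deviations of same-numbered libraries had r = -0.083 between the tumour groups and 0.0064 between the culture groups, over 9481 genes. Between mLJZD tumours and control-serum cultures r was 0.17. Each r rests on 1 difference between replicates per group, so these values cannot tell whether the libraries were paired. With the replicate block, 67 members were higher and 1 lower in tumours, and 77 were lower in cultures. In saline tumours against control-serum cultures 5 members were higher and 68 lower, and 79 were higher in the interaction. Over all genes tested with the block, 2177 of 15417 were higher and 2279 lower in tumours, and 3544 of 13299 were lower in cultures. In saline tumours against control-serum cultures 6750 of 15332 were higher and 5375 lower, and in the interaction 3801 of 16090 were higher.

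Over all 82 members tested in cultures, 11 had a positive value with the trend removed, against 0 without, among them Rpl26 at 0.44 and Rpl29 at 0.60. With copies added, Rpl21 was 1.81 and Rps10 0.21 in saline tumours against control-serum cultures. Among the genes chosen by the naming rule for each comparison, signs turned in 29 values. In tumours Rpl7l1 ranged from -0.087 to 0.047 with 1 library left out, and Rps27l was -0.045 with the trend removed, with or without the block. In cultures, with the trend removed and then with the block as well, Rpl36al was 0.091 and 0.12, Rpl38 0.061 and 0.11, and Rps6 0.031 and 0.031; Rpl36al ranged from -0.81 to 0.21 with 1 library left out. In saline tumours against control-serum cultures, Rpl26 was -0.32 with copies added. With the trend removed there, without and with the block, Rpl36al was 0.16 and 0.20, Rpl39 0.33 and 0.34, and Rps27 0.62 and 0.63. With 1 library left out, Rpl36al ranged from -0.69 to 0.32, Rpl39 from -0.49 to 0.10 and Rps27 from -0.26 to 0.24. Rps27 was also 0.011 with relative log expression scaling, 0.0072 with upper-quartile scaling, 0.011 with DESeq2, 0.0064 with the block and 0.15 with library totals. The interaction of Rpl3l ranged from -2.31 to 2.18 with 1 library left out, reaching 2.18 without mLJZD-serum culture replicate 2. Of the single-gene results under other settings, 1545 kept direction and side of the threshold, 33 lost the threshold and 14 gained it.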
